A study of Mus musculus with 42 samples.

Results

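The comparison concerned microglia of the wild-type hippocampus in germ-free (GF) mice that did or did not receive acetate. It rested on 7 of the 42 bulk RNA-seq libraries of a study of microbiota, acetate and brain macrophages, picked by their sample labels. Earlier results of these data were known when the groups were chosen. The acetate group held 4 libraries (animals GFA518, GFA523, GFA524 and GFA525) and the untreated GF group 3 (GF529, GF530 and GF532), 1 library per animal. All 7 mice were wild-type C57BL/6 animals aged 16 weeks and kept germ-free. The labels give 8 weeks of acetate for wild-type and 5xFAD animals and name a further 4-week group, and no label ties a duration to a single library. Microglia were enriched on a density gradient and sorted as CD11b+ CD45lo cells, a gate that keeps cells with little CD45. Values beside these came from hippocampus of specific-pathogen-free (SPF) wild-type mice (n = 4) and of 5xFAD mice, GF (n = 3) or GF with acetate (n = 4), and from cortex of wild-type GF and acetate mice (n = 4 each). All of these were also C57BL/6 and 16 weeks old. 5xFAD mice carry human transgenes with familial Alzheimer mutations, driven in neurons by the Thy1 promoter.

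Microglia are the resident macrophages of the brain. In the resting state they survey their surroundings with moving processes, held to this state by purine receptors, TGF-beta and contact with other cells, and they carry a set of genes called homeostatic that fades in injury and disease. Acetate is a short-chain fatty acid made by gut bacteria, which cells can turn into acetyl-CoA for respiration, lipid synthesis and histone acetylation. Glucocorticoids, steroid hormones of the adrenal gland, act in the same cells through a receptor that raises genes such as Fkbp5, Tsc22d3, Zbtb16 and Per1.

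Total counts of the 7 libraries ran from 15.06 M to 21.75 M, and 1 of the SPF libraries used below had 5.86 M. Genes with at least 1 count numbered 16607 in GFA518 and 17750 in GF530, against 19142 to 19483 in the other 5, and after thinning every library to 5743891 counts the numbers were 15213 and 16460 against 17482 to 17623. These libraries are called sparse below, and counts of called genes are given with and without them. The 8 microglial markers, which include P2ry12, Tmem119 and Cx3cr1, summed to 42700 to 43800 CPM (counts scaled to a common library total) in GF and 51600 to 52200 CPM with acetate. Markers of other cells differed in level. Neuronal genes summed to at most 4.92 CPM and T and NK cell genes to at most 1.65 CPM. Astrocyte genes summed to 335 to 460 CPM in GF and 208 to 396 CPM with acetate, nearly all of it Slc1a3 (331 to 457 and 202 to 389 CPM), and the other 8 were each below 10 CPM, Gfap at 0. B cell genes summed to 441 to 630 CPM in GF and to at most 732 CPM with acetate, carried by Ighm and Cd79b, endothelial genes to 321 to 416 and 396 to 455 CPM, carried by Bsg and Pecam1 with Cldn5 at 0, and oligodendrocyte genes to 156 to 162 and 138 to 156 CPM. Neutrophil genes summed to 486 to 883 CPM in GF and 558 to 671 CPM with acetate, mostly Csf3r, but GF532 stood apart. It held 79.6 CPM of S100a8, 78.5 CPM of S100a9, 41.4 CPM of Ngp, 21.6 CPM of Ltf, 17.3 CPM of Camp and 12.4 CPM of Lcn2, and none of these exceeded 0.27 CPM in the other 6 libraries. The part of other cells in the results below was not tested, and counts of calls are also given without GF532. Border macrophage markers summed to 802 to 1130 CPM in GF and 490 to 666 CPM with acetate, nearly all from Stab1, which microglia also express, while Mrc1 lay between 0.066 and 9.73 CPM and Cd163, Pf4 and Ms4a7 at or near 0. Genes raised by tissue dissociation and immediate-early signalling summed to 5390 to 9180 CPM in GF and 4960 to 5630 CPM with acetate, and their part in the results below was not tested.

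With acetate, microglia of the wild-type hippocampus held more RNA of 6 of 25 homeostatic genes, among them purine receptors, and less of 3 of 30 glucocorticoid-responsive genes, of which Per1 was also the 1 clock gene of 17 to fall. Olfml3, P2ry12, P2ry13, Gpr34, Sparc and Slc2a5 rose between 1.44 and 1.58-fold. The clock gene Per1 fell 4.97-fold, the PI3 kinase inhibitor Pik3ip1 7.61-fold, the transcription factor Klf13 2.65-fold and the adrenergic receptor Adrb1 2.72-fold. In all, 39 genes were higher and 45 lower of 17063 tested (edgeR quasi-likelihood test, Benjamini-Hochberg adjusted p under 0.05, the threshold for every call here), which is 0.492% of the genes tested (0.229% higher, 0.264% lower). The 39 rises had a median fold of 1.56, with 29 under 2-fold, and the 45 falls a median fold of 1.81, with 25 under 2-fold. In 80 of the 84, 37 rises and 43 falls, the CPM of the 2 groups did not overlap between libraries, as in 8.78% of all genes tested (2.71% higher, 6.07% lower). These CPM used the raw library total, while the test also used TMM scaling factors, 1.045 to 1.049 in GF and 0.984 to 1.006 with acetate. Plain CPM therefore stood higher in GF than on the tested scale, which favours non-overlap on the lower side. Ratios of CPM also differ from the folds given. Since these are bulk samples, fewer cells that express a gene and less RNA of it per cell cannot be told apart. The p-values rest on a spread between animals that was estimated over all hippocampus libraries, not only those of the groups compared.

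The number of calls rested on the libraries and on the estimate of the spread, which was shared over all 22 hippocampus libraries. A fit of only the 2 groups compared called 0 genes (1073 at an unadjusted p under 0.05, against 2003 in the shared fit), a fit of the 11 wild-type hippocampus libraries called 2 higher and 5 lower, and DESeq2 on all 22 called 209 higher and 167 lower. Without GFA518 and GF530 the calls were 49 higher and 53 lower, of which 47 were among the 84, and without GFA518 alone they were 62 and 68. Leaving out GF529, GFA523, GFA524 or GFA525 left 24 and 11, 26 and 25, 13 and 17, and 15 and 14 calls, and leaving out GF532 gave 25 and 33. Of the 84, 10 genes kept their call in each of the 7 fits with 1 library left out, which include Hacd4, Olfml3, Pros1 and Tram1 among the rises and Fam193a, Klf13, Phlpp2, Ppp1r21 and the predicted gene Gm37310 among the falls. Of the 84, 41 passed in at most 2 of the 7. GFA518 was the acetate library nearest to the GF group in 21 of the 39 rises and 27 of the 45 falls, and GF529 the GF library farthest from the acetate group in 30 of the falls.

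Olfml3, a secreted glycoprotein that microglia express among brain cells, was the homeostatic gene with the smallest p. It measured 1482, 1896 and 2175 CPM in GF529, GF530 and GF532 and 2579, 2926, 2623 and 2967 CPM in GFA518, GFA523, GFA524 and GFA525. The lowest acetate library lay above the highest GF library (1.58-fold, log2 0.66, SE 0.11, adjusted p = 0.0059). P2ry12, the ADP receptor that steers microglial processes towards injury, had 5439, 5488 and 5089 CPM in GF and 6639, 7396, 8506 and 9044 CPM with acetate, again without overlap (1.56-fold, adjusted p = 0.013). Its call was lost without GF532 or GFA525 (adjusted p up to 0.051). P2ry13, a second ADP receptor that lies in the same chromosomal cluster, averaged 1470 ± 65 CPM (SD, n = 3) in GF and 2210 ± 310 CPM (n = 4) with acetate (1.58-fold, edgeR adjusted p = 0.024). Gpr34, a receptor for lysophosphatidylserine, rose from 2320 ± 60.5 to 3220 ± 341 CPM (1.47-fold, adjusted p = 0.024). P2ry13 and Gpr34 each lost the call without any 1 of GF529, GF530, GF532, GFA524 and GFA525 (adjusted p up to 0.085). Exons of P2ry12 overlap those of Med12l on the opposite strand, and whether the counting used strand is not given in the sources used here.

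**Figure D1:**
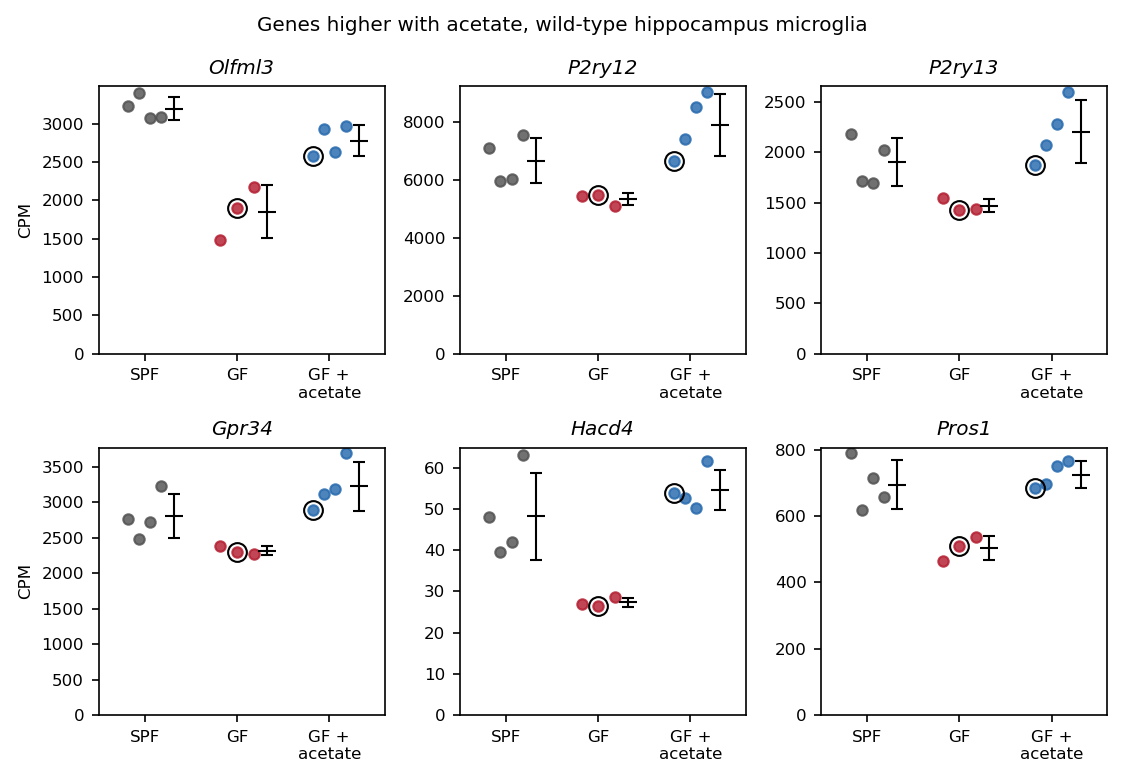
CPM per library (points) of 6 genes that were higher with acetate, in SPF, GF and GF with acetate wild-type hippocampus, with mean and SD as bars beside the points; black rings mark the sparse libraries GF530 and GFA518. In all 6 panels the lowest acetate library lies above the highest GF library, for Olfml3 at 2579 against 2175 CPM.

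Of the 25 homeostatic genes tested, 6 rose, 1 fell and 18 did not pass, with a median log2 difference of 0.24 against 0.006 over all genes. Besides the 4 above, Sparc, a secreted matrix protein, rose from 2940 ± 482 to 4030 ± 477 CPM (1.44-fold, edgeR adjusted p = 0.029) and Slc2a5, the fructose transporter, from 669 ± 109 to 963 ± 48.2 CPM (1.52-fold, adjusted p = 0.038). Rhob, a small GTPase that is also an immediate-early gene, was the member that fell, from 796, 792 and 770 CPM to 550, 494, 530 and 491 CPM (log2 -0.53, adjusted p = 0.028). Fcrls, an Fc receptor-like protein of microglia, did not pass (log2 0.72, SE 0.21, adjusted p = 0.12), although its 1387 to 1823 CPM in GF and 2261 to 2887 CPM with acetate did not overlap. Tmem119 and the fractalkine receptor Cx3cr1 had log2 0.31 and 0.28 with SEs of 0.12 and 0.1 (adjusted p = 0.28 for each). Sparc lost its call without GF529, GF532, GFA524 or GFA525 and Slc2a5 without each library but GF532 and GFA518 (adjusted p up to 0.16 and 0.18). Rhob kept its call only without GFA518 (adjusted p up to 0.085 otherwise). The number of members called higher was 0 in the fit of only the 2 groups, and it was 2, 4 and 2 without GF529, GF530 and GF532 and 2 and 1 without GFA524 and GFA525. The list's median stayed between 0.23 and 0.28 in every alternative, but all of these reuse the same libraries. The homeostatic list was written with earlier results of these data known, so its direction is no independent evidence.

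Other rises included genes of several roles. Pros1, which encodes protein S, an anticoagulant and a ligand of the phagocytic receptors Mertk and Axl, went from 464, 510 and 536 CPM to 684, 698, 751 and 768 CPM (log2 0.60, SE 0.09, adjusted p = 0.0042). Every acetate library was above every GF library. Hacd4, an enzyme of very long-chain fatty acid synthesis, ranged from 26.4 to 28.7 CPM in GF and from 50.2 to 61.6 CPM with acetate (2.1-fold, adjusted p = 0.0078). The largest rises after Hacd4 among genes averaging 5 CPM or more in either group were Lst1, a leukocyte membrane protein (2.09-fold), Tbc1d1, a Rab GTPase-activating protein (2.09-fold), Kcnma1, the large calcium-activated potassium channel (2.05-fold), the tetraspanin Upk1b (2.02-fold) and Evi2a (1.86-fold). Chtop, which acts in mRNA export (1.65-fold), Vhl, which targets HIF for degradation (1.65-fold), Cyb5b of the outer mitochondrial membrane (1.63-fold) and the tyrosine kinase Tec (1.61-fold) rose less. With a library left out, the adjusted p of these 9 rose to 0.052 (Evi2a, without GF529), and to between 0.12 and 0.19 for the other 8.

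Further rises were smaller. The cell adhesion proteins Jam2 (1.53-fold) and F11r (1.32-fold), the Wnt carrier Wls (1.38-fold), the membrane-cytoskeleton protein Marcks (1.37-fold) and the recycling GTPase Rab11a (1.3-fold) were among them. With a library left out, F11r passed in 0 of 7 fits, Jam2, Wls and Rab11a in 1 and Marcks in 2. Genes of the endoplasmic reticulum among the calls were Tram1 (1.45-fold), Bcap31 (1.39-fold), Magt1 (1.5-fold) and Pdia3, a protein disulfide isomerase (1.35-fold), named after their values were seen. Of 26 unfolded protein and heat shock genes Pdia3 was the single one called, at a list median of log2 0.34, and that call was lost with RLE size factors, with thinned counts, with no filter and without GF529, GF532, GFA523, GFA524 or GFA525 (adjusted p up to 0.33 over all alternatives). Of the 26, 11 (42.3%) had an unadjusted p under 0.05 by edgeR, against 11.7% of all genes tested. Bcap31 passed in 1 of the 7 fits with a library left out, Magt1 in 2 and Tram1 in all. Canx, Hsp90b1, Calr and Hspa5, chaperones of the same compartment, had log2 0.40, 0.35, 0.33 and 0.35 and did not pass (adjusted p = 0.065, 0.14, 0.21 and 0.42). Exons of Hacd4, Evi2a, Kcnma1 and Pdia3 overlap other annotated genes, as do those of 23 of the 84 called genes. Cbx2, Pbk and Grm3 were at 0 counts in all GF libraries. Their acetate means of 3.38, 1.55 and 1.4 CPM were 20.1, 9.21 and 8.27 times a floor of 3 counts per library (0.169 CPM). These ratios rest on the acetate libraries alone. With a library left out, Cbx2 passed in 6 of the 7 fits and Pbk and Grm3 in 1. Pbk and Grm3 were also at 0 in GFA518 and so overlapped between groups, and Pbk had 1.59, 0.309 and 4.32 CPM in GFA523, GFA524 and GFA525.

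Per1, a repressor of the circadian clock that glucocorticoids and cyclic AMP also raise, was 127, 107 and 68.7 CPM in GF529, GF530 and GF532. With acetate it was 10.1, 10 and 16.7 CPM in GFA523, GFA524 and GFA525 and 40.2 CPM in GFA518. No acetate library reached the lowest GF library, and GFA518 lay between the other 3 and the GF group (log2 -2.31, SE 0.44, adjusted p = 0.018). The call was lost without GF529, GFA523, GFA524 or GFA525 (adjusted p up to 0.063) and held without GFA518 and GF530 (adjusted p = 0.0025). Pik3ip1, an inhibitor of PI3 kinase, had 105, 42 and 18.5 CPM in GF529, GF530 and GF532, and was 2.67 to 10.3 CPM with acetate (log2 -2.93, SE 0.47, adjusted p = 0.0059, and up to 0.052 without GF529). Klf13, a Kruppel-like transcription factor, went from 82.4 to 123 CPM in GF to 31.4 to 43.3 CPM with acetate (log2 -1.41, SE 0.23, adjusted p = 0.0059).

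**Figure D2:**
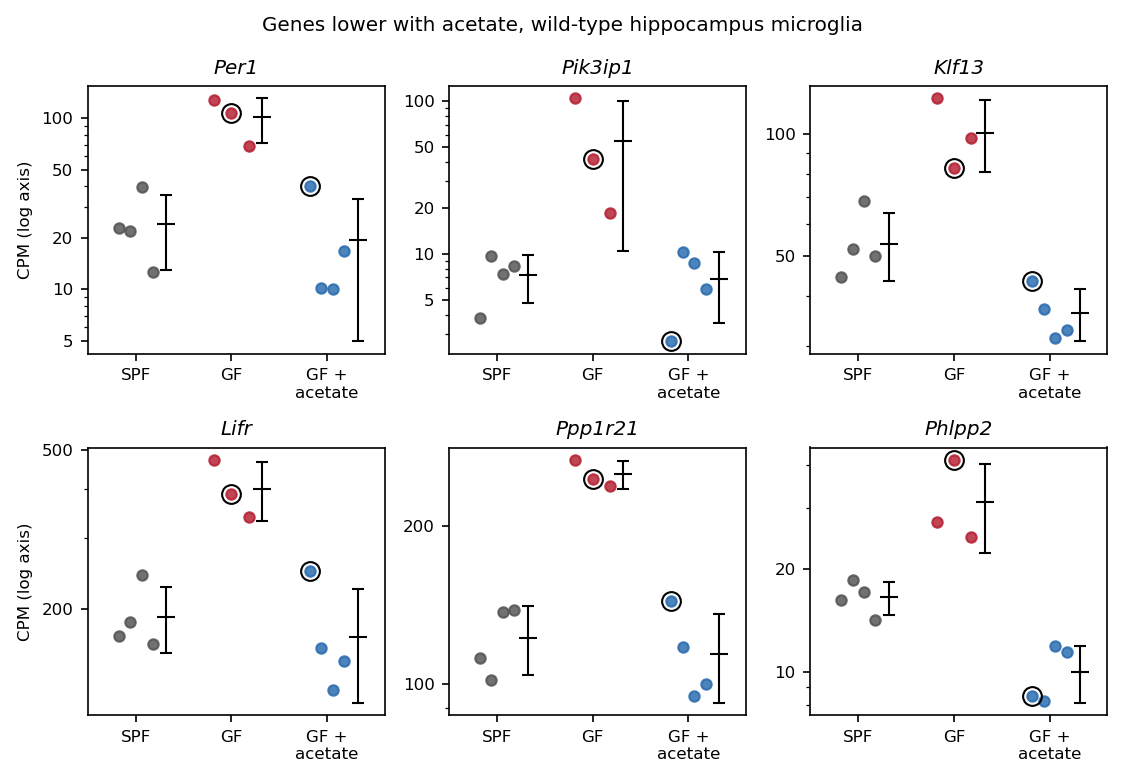
CPM per library (points, log axis) of 6 genes that were lower with acetate, in SPF, GF and GF with acetate wild-type hippocampus, with mean and SD as bars beside the points; black rings mark GF530 and GFA518. For Per1 and Lifr the ringed acetate library is the highest of its group, at 40.2 and 249 CPM.

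Of 30 glucocorticoid-responsive genes tested, 3 fell (Pik3ip1, Per1 and Nfkbia), 0 rose and 27 did not pass, with a median log2 difference of -0.54. The number that fell was 0 without GF529, 1 each without GFA523, GFA524 and GFA525, 9 without GFA518, 8 without both sparse libraries and 0 in the fit of only the 2 groups. The list was written with earlier results of these data known, so its direction is no independent evidence. Nfkbia, the inhibitor that holds NF-kB in the cytoplasm, was 347, 161 and 182 CPM in GF and 161, 103, 92.4 and 109 CPM with acetate (log2 -0.91, adjusted p = 0.046, and up to 0.3 with a library left out). Its highest acetate library and its lowest GF library were both at 161 CPM, and the call was lost without GF529, GFA523, GFA524 or GFA525. Fkbp5, a co-chaperone of the glucocorticoid receptor, was 862, 702 and 566 CPM in GF and 333, 107, 83.5 and 71.5 CPM with acetate, and did not pass (log2 -2.18, SE 0.52, adjusted p = 0.066). Without GFA518 and GF530 its adjusted p was 0.026. Zbtb16, a zinc-finger transcription factor, was 60.8, 25.8 and 13.1 CPM in GF and 7.54, 1.15, 0 and 0.199 CPM with acetate (log2 -3.77, SE 0.94, adjusted p = 0.075, and 0.012 without GFA518 and GF530). Tsc22d3, which encodes the glucocorticoid-induced leucine zipper, was 651, 427 and 286 CPM in GF and 313, 93.6, 99.4 and 79.9 CPM with acetate (log2 -1.56, adjusted p = 0.2). In all 3 genes GFA518 was the highest acetate library, and for Tsc22d3 it lay above GF532. The glucose transporter Slc2a3 and the sulfotransferase Sult1a1 also missed the threshold (log2 -2.08 and -1.08, adjusted p = 0.055 each).

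Adrb1, the beta-1 adrenergic receptor, which raises cyclic AMP, was 204, 170 and 130 CPM in GF and 107, 31.4, 44.6 and 52.4 CPM with acetate (log2 -1.44, SE 0.28, adjusted p = 0.022). Lifr, the receptor of leukemia inhibitory factor, was 472, 386 and 339 CPM in GF and 249, 159, 125 and 148 CPM with acetate (log2 -1.15, SE 0.21, adjusted p = 0.014). Both genes had GFA518 nearest to the GF group, and both lost their call without GF529, GFA524 or GFA525, Adrb1 also without GFA523 (adjusted p up to 0.089 and 0.07). Phlpp2, a phosphatase that switches off the kinase Akt, had the smallest p of all genes, at 27.3, 41.6 and 24.8 CPM in GF and 8.51, 8.23, 11.8 and 11.4 CPM with acetate (log2 -1.57, SE 0.22, adjusted p = 0.0038). Ppp1r21, a protein of early endosomes, was 267, 245 and 238 CPM in GF and 144, 118, 95.2 and 100 CPM with acetate (log2 -1.06, SE 0.16, adjusted p = 0.0042).

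The 5′ regions of Per1, Klf13 and Adrb1, which fell, and of P2ry12, which rose, are printed from RefSeq (build GRCm38.p6) as the 250 bases before and 50 after an annotated start, so that the letters searched can be seen beside the values above. Capitals mark the cyclic AMP response core TGACG, the E-box CACGTG bound by clock factors, and the PU.1 site AGGAAGT, each searched on both strands, and lie 246 and 166 bases before the start for Per1, 56 for Klf13, 90 for Adrb1, and 228 and 52 for P2ry12. Per1 is at chr11:69098699-69098998 (plus strand, the first of 2 windows), Klf13 at chr7:63938866-63939165 (minus strand), Adrb1 at chr19:56721867-56722166 (plus strand) and P2ry12 at chr3:59262936-59263235 (minus strand). Every window printed holds a match, so these windows do not show how often matches occur among called genes, which is given below.
Per1: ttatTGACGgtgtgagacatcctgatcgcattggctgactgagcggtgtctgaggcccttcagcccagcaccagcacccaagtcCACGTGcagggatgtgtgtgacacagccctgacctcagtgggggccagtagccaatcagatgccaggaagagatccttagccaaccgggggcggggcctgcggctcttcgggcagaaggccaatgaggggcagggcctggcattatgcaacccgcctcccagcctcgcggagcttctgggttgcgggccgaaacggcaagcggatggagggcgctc
Klf13: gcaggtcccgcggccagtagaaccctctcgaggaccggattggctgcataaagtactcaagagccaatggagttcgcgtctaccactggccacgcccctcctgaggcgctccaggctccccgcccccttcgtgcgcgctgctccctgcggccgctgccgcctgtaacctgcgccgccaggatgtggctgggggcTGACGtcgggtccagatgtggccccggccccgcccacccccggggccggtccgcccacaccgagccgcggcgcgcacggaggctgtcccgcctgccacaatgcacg
Adrb1: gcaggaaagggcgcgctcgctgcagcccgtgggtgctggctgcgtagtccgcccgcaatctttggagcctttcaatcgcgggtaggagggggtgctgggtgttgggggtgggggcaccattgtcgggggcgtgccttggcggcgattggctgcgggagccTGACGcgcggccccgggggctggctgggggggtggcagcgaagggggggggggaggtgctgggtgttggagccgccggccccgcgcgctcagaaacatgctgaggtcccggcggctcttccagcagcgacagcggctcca
P2ry12: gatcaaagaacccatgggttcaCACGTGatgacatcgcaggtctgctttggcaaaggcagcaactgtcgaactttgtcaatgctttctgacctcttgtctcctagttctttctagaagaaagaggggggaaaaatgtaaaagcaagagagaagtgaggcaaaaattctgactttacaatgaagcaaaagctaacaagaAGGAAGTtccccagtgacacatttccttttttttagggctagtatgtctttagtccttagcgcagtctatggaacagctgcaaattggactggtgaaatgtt

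Windows were found for 25 of the 39 rises (26 windows) and 37 of the 45 falls (44 windows), and for 10952 of the genes tested (13911 windows). TGACG was in 15 of the 44 windows of genes that fell (34.1%), in 6 of the 26 windows of genes that rose (23.1%) and in 30% of the windows of genes tested. The E-box was in 6.82% of the windows of falls, 15.4% of those of rises and 9.7% of those of genes tested. AGGAAGT was in 4.55%, 15.4% and 9.23%. The glucocorticoid response element, an inverted repeat around 3 free bases, was in 0 of the windows of called genes and in 0.00719% of those of genes tested, and its looser core, ACA and TGT around 3 free bases, in 0 and 4.44%. These are matches of letters in 300-base windows, and no match says nothing of elements elsewhere.

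Among the other falls, Sgip1, an endocytic adaptor, went from 5.34 to 16.2 CPM in GF to 1.26 to 3.08 CPM with acetate (4.94-fold, adjusted p = 0.012). Ccnd3, cyclin D3, which drives entry into the cell cycle, went from 190 to 258 CPM to 49.9 to 138 CPM (2.53-fold, adjusted p = 0.028), and lost the call without any 1 library but GF532 and GFA518 (adjusted p up to 0.11). Its exons overlap those of Bysl on the opposite strand. Fasn, the fatty acid synthase that builds palmitate from acetyl-CoA, went from 39.8 to 50.4 CPM to 8.74 to 24.4 CPM (2.47-fold, adjusted p = 0.048), and kept its call only without GFA523 (adjusted p up to 0.15 otherwise). Ndst1, an enzyme of heparan sulfate, fell 2.77-fold and Inafm1 2.15-fold. Antxr2, an anthrax toxin receptor, had log2 -3.79 on values of 0.917, 14.6 and 6.33 CPM in GF that overlapped 0.046 to 1.13 CPM with acetate. Ndst1 also overlapped between groups. Without both sparse libraries 28 of the 42 called genes examined singly still passed, and Slc2a5, Rhob, Tbc1d1, Upk1b, Chtop, Vhl, Cyb5b, Tec, Fam193a, Tlr7, Tnfrsf11a, Fasn, Antxr2 and Minar1 did not (adjusted p from 0.058 for Rhob to 0.25 for Antxr2).

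Immune, signalling and chromatin genes were among the smaller falls, named after their values were seen. Tlr7, the endosomal receptor of single-stranded RNA, went from 507 to 736 CPM to 267 to 375 CPM (1.74-fold, adjusted p = 0.029, and up to 0.17 with GF529, GFA518, GFA523 or GFA525 left out). Tnfrsf11a, the receptor RANK, fell 1.46-fold, and Pik3r1, the regulatory subunit of PI3 kinase, 1.48-fold. Pnpla2, the lipase that starts triglyceride breakdown, fell 2.05-fold, Mlxip, a glucose-sensing transcription factor, 1.69-fold, and the amino acid transporter Slc43a2 by 0.79 on the log2 scale. The chromatin regulators Tet3 (1.4-fold), Setd5 (1.44-fold), Phf2 (1.82-fold) and Jade2 (2.05-fold) and the nuclear RNA Neat1 (1.75-fold) were lower too. In Slc43a2 the acetate libraries lay within 93.8 to 102 CPM, all below the 166 to 207 CPM of GF, yet it and Tet3 passed in 0 of the 7 fits with a library left out. Tnfrsf11a, Jade2 and Neat1 passed in 1 of the 7, Pik3r1, Mlxip and Phf2 in 2, Setd5 in 4 and Pnpla2 in 5.

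The lists that bear on what acetate feeds held few calls. None of the 4 subunit genes of succinate dehydrogenase (respiratory complex II) passed: Sdha had log2 0.05 (interval of 2 SE from -0.18 to 0.28), Sdhb 0.19 (-0.04 to 0.42), Sdhc -0.11 (-0.43 to 0.21) and Sdhd -0.16 (-0.42 to 0.11). The acetyl-CoA synthetases that activate acetate had log2 0.06 (Acss1 of mitochondria, -0.26 to 0.39) and -0.63 (Acss2, -1.79 to 0.54, at 0.506 to 10.5 CPM). Of 13 genes of acetate uptake, sensing and acetyl-CoA use tested, Fasn was the single call. Of 36 nuclear complex I genes, 8 of complex II, 34 of complexes III to V, 8 encoded in mitochondrial DNA, 29 of the TCA cycle and pyruvate entry, 24 of glycolysis and 26 of histone acetylation, 0 were called by edgeR (medians of log2 0.14, 0.03, 0.12, 0.10, 0.03, 0.12 and -0.08). Of 21 cholesterol synthesis and 79 ribosomal protein genes 0 passed as well (medians 0.02 and -0.07). Over these 9 lists 20 of 265 genes had an unadjusted p under 0.05 by edgeR (7.55%) and DESeq2 called 6 (2.26%), against 11.7% and 2.2% of all genes tested. The edgeR share was above 11.7% in histone acetylation (6 of 26, 23.1%), glycolysis (5 of 24, 20.8%) and cholesterol synthesis (3 of 21, 14.3%). It was below in the others, with 0 of 79 ribosomal protein genes. DESeq2 called 3 of the glycolysis genes (12.5%). The acetate list, which holds the Fasn call, is not among the 9 and had 1 of 13 (7.69%).

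Immune and disease lists held few calls. Of 32 disease-associated microglial genes 0 passed (median log2 0.20). Apoe, an apolipoprotein, had log2 0.05 (interval -0.93 to 1.02), Trem2, a lipid-sensing receptor, 0.21 (-0.03 to 0.45), and Clec7a and Cst7, which mark plaque-associated microglia, 0.50 and 0.24 with SEs of 0.8 and 0.69. In MHC class II 11 of 11 genes had a positive difference and 0 passed (median log2 0.38), with Cd74 at 11.1 to 29.1 CPM in GF and at 81.5 CPM in GFA518 against 15.8 to 20.2 CPM in the other acetate libraries. Of 35 type I interferon, 17 MHC class I, 33 phagocytosis and lysosome and 25 TGF-beta and ALK1 genes 0 passed (medians of log2 -0.01, 0.12, 0.08 and 0.08). Over these 6 lists, each with 0 edgeR calls, 16 of 153 genes had an unadjusted p under 0.05 by edgeR (10.5%). DESeq2 called 6 of them (3.92%), beside the same 11.7% and 2.2% of all genes. The edgeR share was above 11.7% in TGF-beta and ALK1 (4 of 25, 16%), phagocytosis and lysosome (5 of 33, 15.2%) and disease-associated genes (4 of 32, 12.5%). It was 8.57% in type I interferon genes and 0 in both MHC lists. DESeq2 called 8% of the TGF-beta and ALK1 genes and 9.09% of the phagocytosis and lysosome genes. Lists with a call are not in this sum. Among them, 7 of 28 inflammatory genes had such a p (25%) and DESeq2 called 3 (10.7%). For Fc receptors and complement, with 1 edgeR call, these were 3 of 19 (15.8%) and 2 (10.5%). One gene each was called of 28 inflammatory genes (Nfkbia, lower), 17 clock genes (Per1, lower), 25 immediate-early genes (Rhob, lower) and 26 cell cycle genes (Ccnd3, lower), at medians of 0.01, -0.20, -0.21 and 0.33.

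**Figure D3:**
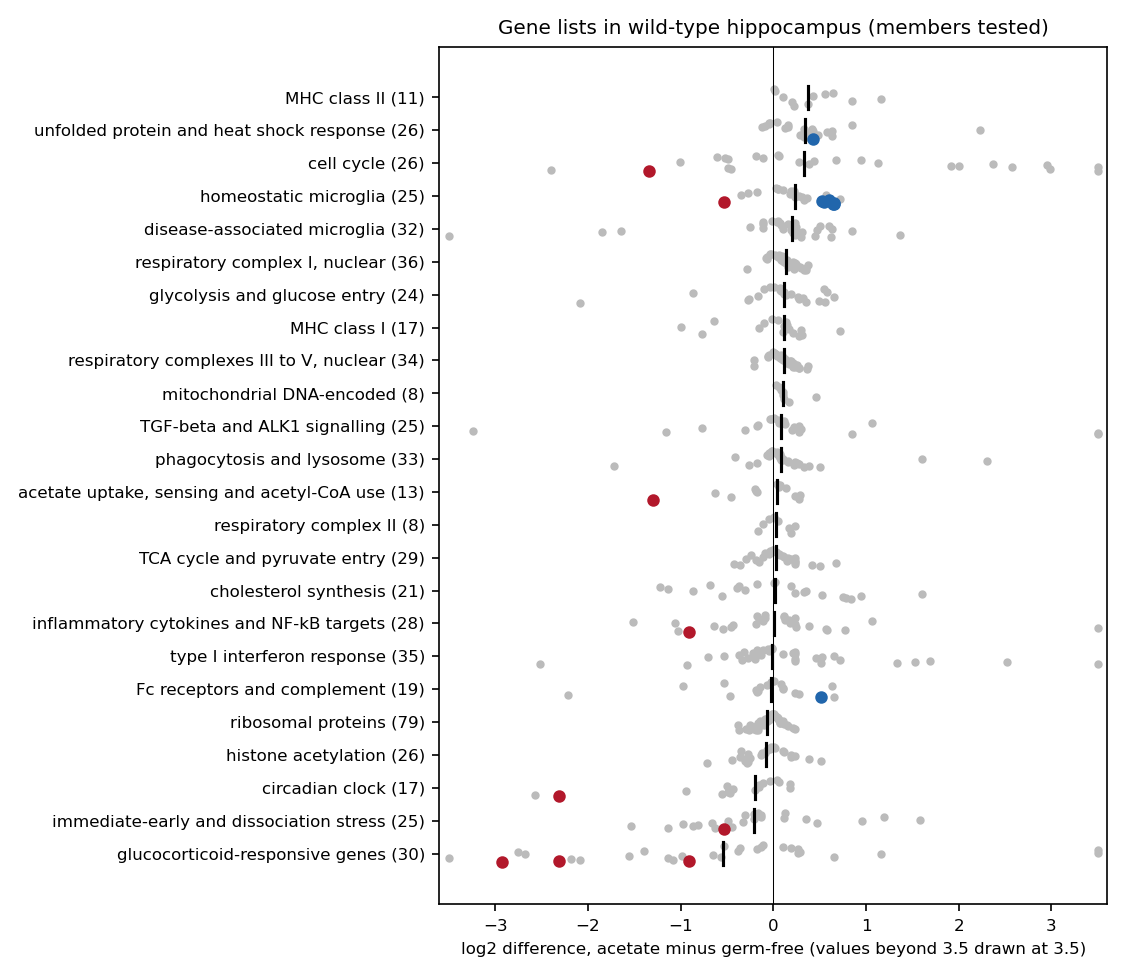
Log2 difference, acetate minus GF, of each tested gene (points) in the lists of genes, with the median as a black bar; blue and red points are genes called higher and lower, and grey points did not pass. The homeostatic list holds 6 blue points and the glucocorticoid-responsive list 3 red ones, at medians of 0.24 and -0.54.

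Levels in SPF mice stood beside these, with the same libraries in both contrasts, so only the values are given. Olfml3 averaged 3190 CPM in SPF, 1850 CPM in GF and 2770 CPM with acetate. It differed between GF and SPF (log2 -0.87, adjusted p = 0.00022), and between acetate and SPF it did not pass (log2 -0.21, adjusted p = 0.57). Per1 averaged 24.1 CPM in SPF, 101 CPM in GF and 19.2 CPM with acetate, and Klf13 53.7, 101 and 36.1 CPM. Kcnma1 differed from this order: GF against SPF gave log2 0.01 (adjusted p = 1), and acetate against SPF gave 1.05 (adjusted p = 0.015). Over all genes 0.727% were called between GF and SPF (0.328% higher, 0.399% lower in GF) and 0.123% between acetate and SPF (0.0996% higher, 0.0234% lower with acetate). Nnt, the mitochondrial transhydrogenase, the endosomal protein Wdfy1 and the lysosomal protein Gpr137b did not pass between acetate and GF (log2 0.06, 0.51 and 0.35). Against SPF all 3 were higher in GF (log2 0.91, 1.09 and 0.97) and with acetate (log2 0.97, 1.60 and 1.32).

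The same treatment in 5xFAD hippocampus, in 7 other mice, called 3 genes higher and 11 lower (0.082% of those tested, 0.0176% higher and 0.0645% lower), and 2 to 8 in all with GF526, GF527, GF531, GFA519, GFA520 or GFA522 left out and 38 without GFA521. Of the 84 wild-type calls, 77 (91.7%) had the same direction there, against 57.1% of all genes tested, and 9 of them were called. Those 9 include Olfml3 and Marcks among the rises and Ppp1r21, Rnf169, Rbm26, Lifr, Pik3r1 and Klf13 among the falls. The log2 difference was smaller in 5xFAD in 78 of the 84, with medians of 0.32 against 0.64 for the rises and -0.66 against -0.85 for the falls. Being called in wild type favours larger values there, so the direction of that gap is no result. Pros1 had 464 to 536 CPM in wild-type GF and 684 to 768 CPM with acetate, and in 5xFAD the GF libraries reached 588 CPM and overlapped the acetate libraries at 579 to 634 CPM. Its log2 difference in 5xFAD was 0.17, and the difference between genotypes did not pass for this gene (edgeR adjusted p = 0.89).

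The difference between genotypes was tested itself, and edgeR called 0 genes (905 at an unadjusted p under 0.05, 5.3%). DESeq2 called 7. The smallest p belonged to Chtop, which had log2 0.72 in wild type and -0.43 in 5xFAD (difference -1.15, SE 0.2, adjusted p = 0.13). Its levels were 51 to 74.2 CPM in wild-type GF and 87.2 to 121 CPM with acetate, and 115 to 120 CPM in 5xFAD GF and 70.2 to 103 CPM with acetate. The fall in 5xFAD did not pass (edgeR adjusted p = 0.34). Chtop was picked by its p for this difference, so the separation of its groups is no further support. Tmem183a had log2 0.58 and -0.61 (adjusted p = 0.31) and the phospholipid flippase Atp11b 0.50 and -0.55 (adjusted p = 0.71). Fasn had log2 -1.30 in wild type and 0.33 in 5xFAD (difference 1.63, adjusted p = 0.72), and the chemokine Ccl3 -1.03 and 0.35 (adjusted p = 0.79). Minar1 had -4.60 and 0.82 (adjusted p = 0.71), at no more than 5.28 CPM in wild type. For P2ry12 the difference was -0.37 (interval -0.7 to -0.05, adjusted p = 0.91).

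**Figure D4:**
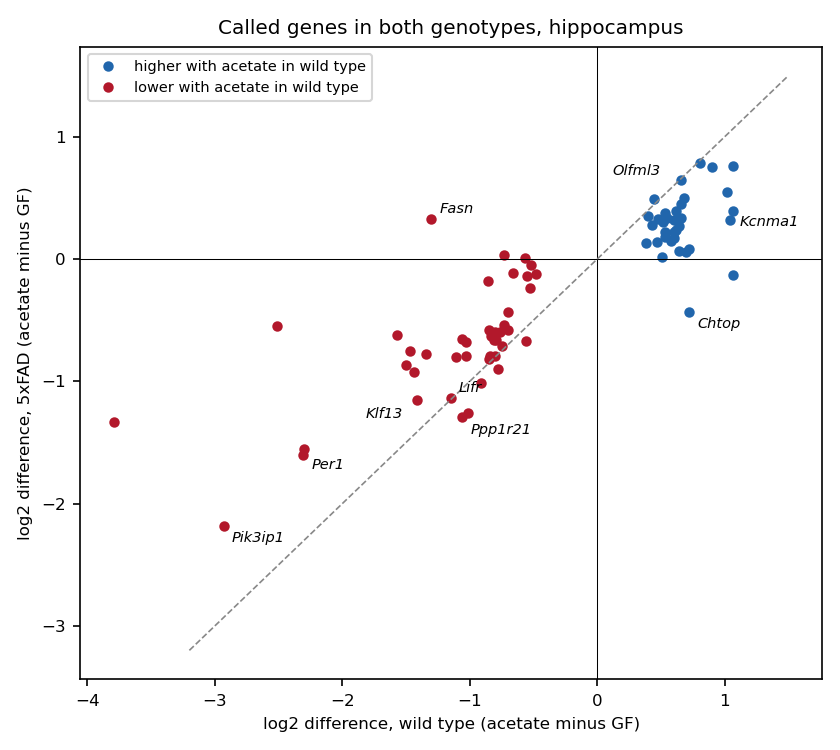
Log2 difference, acetate minus GF, in wild-type (x axis) and 5xFAD hippocampus (y axis) for 78 of the 84 genes called in wild type, with 6 genes beyond log2 4 in wild type left out; the dashed line marks equal differences. Most points lie on the same side of 0 on both axes and nearer to 0 on the y axis, and Fasn and Chtop lie on opposite sides.

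Cortex libraries of the same animals were used to see whether the sparse hippocampus libraries stood apart in the other region. In cortex GFA518 detected 19434 genes and GF530 19402, against 19460 to 20581 in the other 6 GF and acetate cortex libraries. GFA518 was still the highest acetate animal in cortex for Fkbp5 (266 CPM against 102 to 131), Tsc22d3 (464 against 60.7 to 104) and Per1 (40.1 against 9.66 to 12.6). Fkbp5 in cortex GF had a lowest value of 604 CPM, and Tsc22d3 372 CPM, which GFA518 exceeded. For these genes the animal was the acetate animal nearest to GF in both regions.

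**Figure D5:**
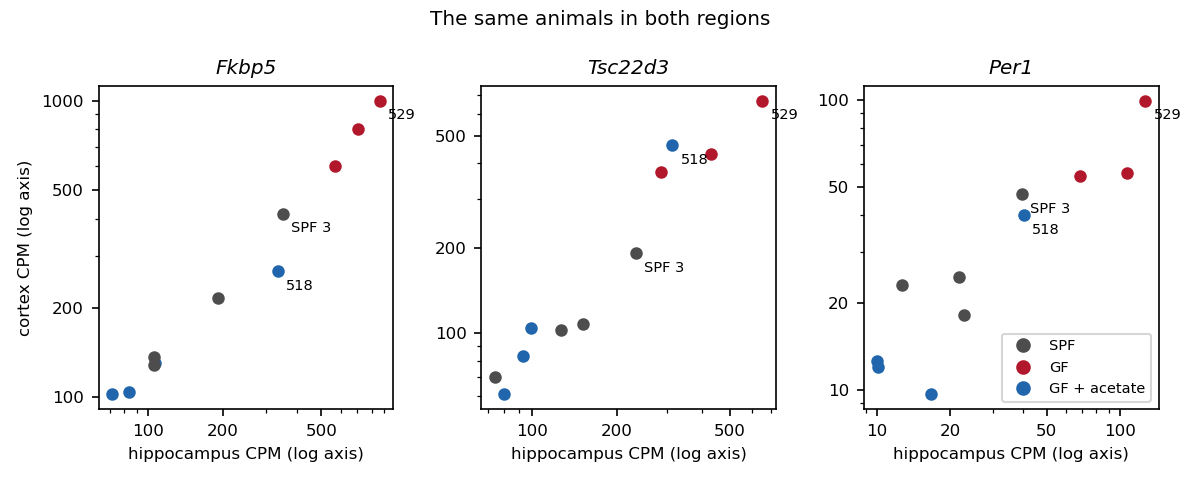
CPM in hippocampus (x axis) and cortex (y axis) of the same wild-type animals, both log axes, for Fkbp5, Tsc22d3 and Per1; each point is 1 of 11 animals, coloured by condition. Animal GFA518 is the highest acetate animal in each panel, for Tsc22d3 at 313 and 464 CPM.

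In cortex 68 genes were called higher and 79 lower with acetate (0.973% of 15113 tested, 0.45% higher and 0.523% lower), and 23 to 77 in all with GF528, GF529, GF532, GFA523, GFA524 or GFA525 left out. For the genes described above the cortex differences were log2 0.73 (Olfml3, adjusted p = 0.0017), 0.63 (Slc2a5, 0.009), 0.57 (Sparc, 0.014), -1.10 (Ppp1r21, 0.0017), -1.15 (Lifr, 0.0015), -1.07 (Klf13, 0.014), -1.03 (Phlpp2, 0.021) and -2.11 (Pik3ip1, 0.0017). P2ry12 (0.43), Pros1 (0.46), Gpr34 (0.17), Per1 (-1.81) and Adrb1 (-1.06) did not pass there (adjusted p = 0.085, 0.075, 0.74, 0.071 and 0.19). With the animal as a block, the test of hippocampus against cortex called 0 of 16706 genes by edgeR (732 at an unadjusted p under 0.05, 4.38%) and 3 by DESeq2. In simulated data the edgeR test recovered 23% of differences of log2 1 and 52% of those of log2 2, so 0 calls do not show equal effects. The smallest p belonged to Lpin1, a phosphatidate phosphatase (log2 -0.77 in hippocampus and 0.20 in cortex, adjusted p = 0.99), the interferon-induced RNA sensor Ifih1 (-0.93 and 0.43) and Fam193a (-0.66 and -0.04) on the lower side. Stx7, a syntaxin of late endosomes (0.42 and -0.04), Clp1 (0.53 and -0.45) and Gmcl1 (0.72 and -0.13) were those on the higher side, at adjusted p = 0.99 each.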

How the data were processed

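RNA of sorted microglia was sequenced on a HiSeq 1000 in 1 library per animal and region, per the labels' protocols. Reads were aligned with STAR 2.5.2b and counted with featureCounts 1.5.1, per the submitters' processing notes, and the deposited table holds raw read counts per gene for 53546 gene symbols, of which 93.5% matched a mouse gene name table. The notes list the human build GRCh38, while the symbols are of mouse, so no coordinate was taken from the table. Whether strand was used is not given in the sources used here. Samples were grouped by the labels, and 8 whole-brain files were not used.

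From the counts, genes were kept by filterByExpr (minimum count 10), scaled by TMM and tested two-sided with the robust edgeR 4.0.16 quasi-likelihood test in R 4.3.3 over the 22 hippocampus libraries in 6 groups, with Benjamini-Hochberg adjustment. CPM are counts over the library total, and intervals are 2 SE. Library pairs of a group differed by more than sampling noise. The cortex groups were fitted among themselves, and the hippocampus was compared with cortex with the animal as a block over 22 libraries of 11 animals. Same-animal libraries pair by the animal number in the labels, and the correlation of their deviations was 0.027 to 0.115, over 0.1 in 4 of 11 animals. The tests were first tested on simulated data with known changes in 200 genes. Of changes of log2 1 and 2, the wild-type hippocampus test recovered 41% and 57% and the cortex test 55% and 75%. The genotype test recovered 13% and 47% and the region test 23% and 52%. False calls made up 3.92%, 2.99%, 6.25% and 6.25% of the calls, in the same order. Apart from the set changes, each gene had the same mean and spread in all simulated libraries, with no animal effect and a single run per comparison. Sparse libraries such as GFA518 and GF530 were not imitated, so these shares may not hold in the real data. DESeq2 1.42.0, limma 3.58.1, other scalings and filters, thinned counts and left-out libraries were the alternatives.

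The groups and gene lists were chosen with earlier results of these data known. Named genes are, per direction, up to 12 of the largest called differences among genes averaging 5 CPM or more in either group, up to 4 genes of smallest p per list, up to 3 per direction in each test of a difference, and a set that is always given. Further genes were chosen after their values were seen, among them Pros1, Ppp1r21, Marcks, Tlr7, Tnfrsf11a, Pnpla2, Stab1, Rnf169, Rbm26 and the other called genes given by fold alone. The values of a few genes are not reported here.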

Additional observations from a re-analysis of the deposited data

Results flagged for a closer look

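Of 74 values tested for 1 library far from the others of its group, 7 stood out, all of them in GFA518. For independent values with a normal spread, chance flags about 1 in 20 groups, which gives 3.7 of 74. The 74 values come from the same 4 libraries and are not independent, so 3.7 is no measure for the 7. The library detected 16607 genes against 19142 to 19483 in the other 3 acetate libraries. It held 333 CPM of Fkbp5 against 71.5 to 107, 313 CPM of Tsc22d3 against 79.9 to 99.4, and 7.54 CPM of Zbtb16 against 0 to 1.15. It also held more of Tmem119 (4260 against 3240 to 3410 CPM), of Stx7 (331 against 270 to 274 CPM) and of Chtop (121 against 87.2 to 92.5 CPM). Whether the number of genes detected and these levels are related was not tested. The untreated GF group of 3 libraries was not tested in this way.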

How the results depend on the processing

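Each of the 42 called wild-type genes examined singly kept its direction in every alternative in which it was tested. The alternatives reuse the libraries in which these genes were called, so a kept direction is no independent evidence. DESeq2 called 209 genes higher and 167 lower in wild-type hippocampus (all 84 calls among them), 151 in 5xFAD, 7 for the genotype difference, 467 in cortex and 3 for the region difference, and raised the share of rises among wild-type calls from 46.4% to 55.6%. With no filter on low counts 5xFAD had 30 calls and the region difference 17. With a mean of at least 5 CPM there were 75 wild-type falls and 46 calls in 5xFAD. With limma voom 5xFAD had 185 calls and cortex 428. Without GFA518 and GF530 the region difference had 1 call. The fit of only the 2 groups had 0 rises and 0 falls (1073 genes at an unadjusted p under 0.05), and that of wild-type hippocampus alone 2 and 5. Leaving out 1 library gave 13 to 62 wild-type rises, 11 to 68 falls, 2 to 38 calls in 5xFAD, 0 to 2 for the genotype difference, 23 to 166 in cortex and 0 to 1 for the region difference. Without GF529 rises made up 68.6% of the calls. The causes were not tested.

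Without the animal block, the replicate block of the region test, the pairing of hippocampus and cortex libraries was ignored and 0 genes were called by edgeR (670 at an unadjusted p under 0.05), as with it. Depth limits genes near the floor, such as Cbx2, Pbk and Grm3, and 3 and 4 animals a group limit the precision of the rest.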

Other observations

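Some genes of energy use and lipid handling lay near the threshold without passing it in wild-type hippocampus. Hk3, a hexokinase, had log2 0.56 (SE 0.15, edgeR adjusted p = 0.08), Ldhb, a subunit of lactate dehydrogenase, 0.35 (adjusted p = 0.085), and Dld, a subunit shared by the pyruvate and oxoglutarate dehydrogenases, 0.50 (adjusted p = 0.11). The cholesterol synthesis enzyme Msmo1 had log2 0.84 (SE 0.24, adjusted p = 0.11). Among lysosomal genes, Hexa had log2 0.50 and Lamp2 0.39 (adjusted p = 0.089 and 0.1), and the scavenger receptor Msr1 -1.72 (adjusted p = 0.24). Serpine2, a protease inhibitor of the disease-associated list, averaged 997 CPM in GF and 1450 CPM with acetate (log2 0.62, adjusted p = 0.051). The acetyltransferases Kat6b and Crebbp had log2 -0.71 and -0.28 (adjusted p = 0.12 and 0.24), and the deacetylase Hdac2 0.52 (adjusted p = 0.31). Acvrl1, the receptor ALK1 of the TGF-beta family, had log2 0.85 (SE 0.25, adjusted p = 0.14).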
